A study of Mus musculus and Canis lupus familiaris and Equus caballus with 9 samples.

Results

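The subject is the list of NRSF binding peaks that the authors deposited for ML2, an established dog line of myelomonocytic leukaemia cells. All 2273 peaks of the list were taken, with no selection, out of 12075 peaks in the 4 lists of the study (18.8%). NRSF, also named REST, was mapped by chromatin immunoprecipitation and sequencing (ChIP-seq), which enriches the DNA that a protein is bound to. The dog group held 2 immunoprecipitated samples and 1 sample of input DNA, which went through no antibody. The cells were at passages 13 to 15, and the labels name no treatment or engineered allele. Cells were fixed with 1% formaldehyde. The antibody was the monoclonal 12C11-1B11, and fragments of 200 to 300 bp entered the libraries. The other 3 lists came from mouse RAW264.7 macrophages and horse E.Derm skin fibroblasts, with the same numbers of samples, and from human cells that no sample label describes. ML2 is 1 cell line, so the list describes that line and not dogs in general, and its labelled cell type could not be checked because positions carry no expression of marker genes.

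NRSF is a zinc-finger repressor that recognises a long DNA element, the NRSE or RE1, and recruits corepressor complexes that remove activating histone marks. It is best known for keeping neuronal genes silent in cells that are not neurons, and blood-derived cells are such a setting. The element has a left and a right part, and the series title places the work around how its canonical form evolved. Each peak is a place where DNA from the cells was enriched with the antibody. A list of such places shows how the called peaks are laid out along chromosomes: how many there are, how far apart they lie, and where several lie side by side. Positions alone do not show that each peak is bound by NRSF.

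The list holds 1 line per peak, with its chromosome and both of its ends on the dog assembly CanFam3.1. Every peak was 400 bp wide, and the list covered 909 kb. No peaks overlapped. Every start was a multiple of 5, and 1867 starts (82.1%, exact 95% interval 80.5 to 83.7%) ended in the digit 5, compared with 406 that ended in 0. The list gave no height, score or value per replicate. Replicate error and depth are therefore unknown, no test between samples was possible, and every interval below covers counting error only. Whether the positions count from 0 or from 1 is not given in the sources used here. No dog gene positions and no dog genome sequence were used here, so peaks are given by position and no gene or sequence is printed.

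Peaks lay on all 38 dog autosomes and on chromosome X, and their density differed 7.40-fold between the autosome with the most and the autosome with the fewest. Density was counted as peaks per Mb from the beginning of the chromosome to the end of its last peak, since the lists hold no chromosome lengths. The median over the 38 autosomes was 0.961 peaks per Mb. Of the autosomes, 33 lay between 0.5 and 1.5 peaks per Mb, 3 lay above and 2 below.

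The 5 densest autosomes were 26, 9, 20, 6 and 24. Chromosome 26 held 103 peaks, or 2.64 per Mb (exact Poisson 95% interval 2.16 to 3.21). Chromosome 9 held 106 peaks, or 1.75 per Mb (1.43 to 2.12). Chromosome 20 held 94 peaks, or 1.62 per Mb (1.31 to 1.98). The intervals of 9 and 20 overlapped. These intervals treat peaks as independent, although 29 of the 103 peaks of chromosome 26 lay in runs of 3 or more close peaks. With each such run and each pair at most 10 kb apart counted once, chromosome 26 had 70 places, or 1.80 per Mb. Chromosomes 6 and 24 followed with 1.39 and 1.30 per Mb. The 3 densest autosomes together held 303 peaks, 13.3% of the list. By number alone the order was another one: chromosome 1, the longest, came first with 140 peaks, then chromosome 6 with 108, and chromosomes 2 and 9 with 106 each.

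The sparsest autosomes were 32, 36, 19, 33 and 22. Chromosome 32 held 13 peaks, or 0.357 per Mb (0.190 to 0.611), and chromosome 36 held 12, or 0.407 per Mb (0.210 to 0.711). Their intervals overlapped widely, so their order is not resolved. Chromosomes 19, 33 and 22 had 0.533, 0.550 and 0.553 per Mb. Chromosome X, with 50 peaks up to 121.7 Mb, had 0.411 per Mb (0.305 to 0.542), which was 0.428 times the median autosome. Across the 38 autosomes, density went with length only loosely (Spearman's rho 0.41, Pearson's r 0.23, given as a description across chromosomes of 1 list, in which the length is itself set by the last peak). Chromosomes 26 and 32 show how loose this was: their last peaks ended at 38.96 and 36.39 Mb, yet they stood at opposite ends of the density order.

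**Figure D1:**
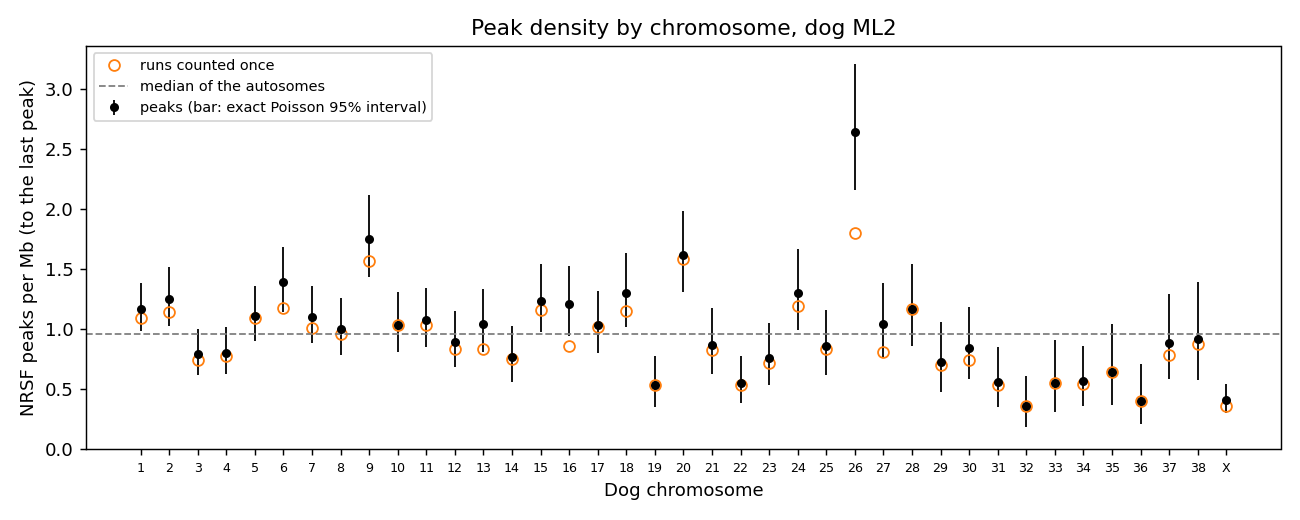
Black points give the NRSF peaks per Mb of each dog chromosome, counted to the end of its last peak, with exact Poisson 95% intervals as bars. Orange circles count each run or pair of peaks chained at 10 kb or less once, and the dashed line is the median autosome (0.961). Chromosome 26 stands highest at 2.64 per Mb and drops to 1.80 with runs and pairs counted once. That is still the highest value of an autosome, next to 1.58 on chromosome 20, but the circles have no interval and their order was not tested.

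Along the autosomes the peaks were spread over the whole length, with somewhat more in the later part. Each autosome was cut into 10 equal pieces from its beginning to its last peak. Of the 2223 autosomal peaks, 171 lay in piece 4, the fewest, and 290 in piece 10, the most. The last peak of each chromosome falls in piece 10 by construction. Without those last peaks piece 10 held 252 peaks (11.5%), next to 250 in piece 7 and 199 in piece 1. Dog chromosomes differed in where their first peak lay. On 9 of the 39 the first peak began within 100 kb of the beginning of the chromosome, the earliest on chromosome 11 at 8235 and on chromosome 1 at 13805. On 7 it began beyond 3 Mb, the latest on chromosome 22 at 7134425.

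Consecutive peaks were mostly far apart. The median distance between consecutive starts was 457 kb over 2234 distances, and the mean was 994 kb. The middle range was wide, from 108 kb at the 25th percentile to 1238 kb at the 75th. Of the distances, 1021 (45.7%) were between 100 kb and 1 Mb and 611 (27.4%) between 1 and 5 Mb. At the short end, 195 distances were 10 kb or less, and 53 of these were 1 kb or less. The shortest was 460 bp, which leaves 60 bp between the edges of both peaks.

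That shortest distance occurred 3 times. It was found between the peaks at chr16:59526635-59527035 and chr16:59527095-59527495, on chromosome 26 between those starting at 28881735 and 28882195, and on chromosome 37 between those starting at 5759275 and 5759735. The next were 465 bp on chromosome 26, 470 bp on chromosome 22 and 480 bp on both chromosome 26 and X. Then came 495 bp on chromosome 15 and 530 bp, once on chromosome 11 and 2 times on chromosome 27. Because of this tie the closest pairs number 11, of which 8 belonged to groups of 3 or more peaks and 3 stood alone as pairs, on chromosomes 37, 22 and 15. Close pairs thus occurred both as isolated doublets and as pieces of longer groups.

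Seen from each peak, the nearest other peak lay at a median of 185 kb. Another start lay within 10 kb of 315 peaks (13.9%, 95% interval 12.5 to 15.3%), within 1 kb of 97 peaks (4.27%) and within 100 kb of 856 (37.7%). The interval treats peaks as independent, although a close neighbour is shared by both peaks of a pair, so it is likely too narrow. At the other extreme, 307 peaks (13.5%) had no other peak within 1 Mb and 14 (0.616%) none within 5 Mb. The most isolated peak was chr3:73745-74145, near the beginning of chromosome 3, whose nearest neighbour lay 13.2 Mb away. On chromosome X the peaks starting at 27281565 and 42140725 had no neighbour within 8.19 and 8.13 Mb.

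Close neighbours were unevenly divided among chromosomes. On chromosome 16, 48.6% of its 72 peaks had another start within 10 kb, and on chromosome 26 it was 41.7% of 103. Chromosomes 27, 13 and 30 followed with 27.1, 24.6 and 23.5%. Chromosomes 10, 19, 28, 32, 33, 35 and 36, with 203 peaks in all, had no such pair. Chromosome 10 is the clearest of these, since its 72 peaks equal the number on chromosome 16. Chromosome 26 alone gave 33 of the 195 distances of 10 kb or less (16.9%) with 4.53% of the peaks.

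**Figure D2:**
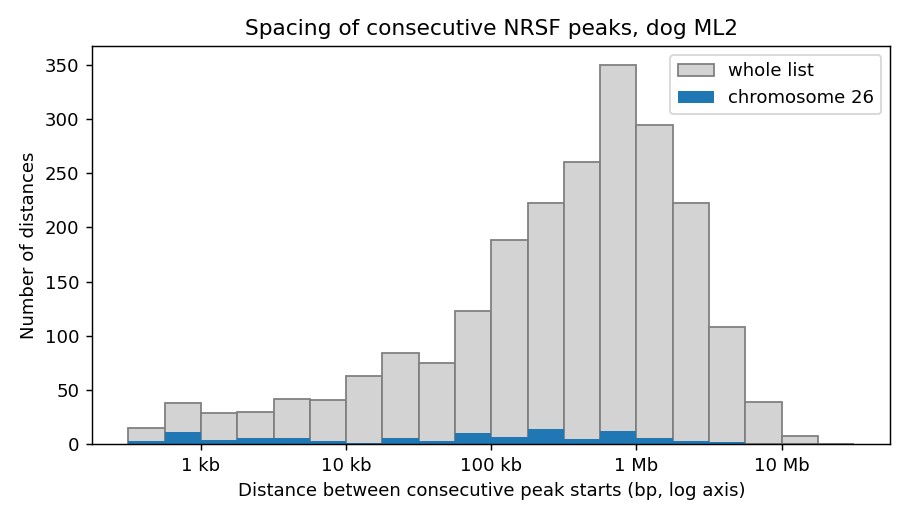
The histogram counts distances between consecutive peak starts on a log axis, for the whole list in grey and for chromosome 26 in blue. Most distances lie between 100 kb and 5 Mb, and a flat shoulder of 195 distances lies at 10 kb or less.

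Peaks chained at 10 kb or less were counted as a run. Chained in this way, the 2273 peaks fell into 2078 separate places: 1958 peaks stood alone (86.1%), 92 places were pairs, and 28 were runs of 3 or more. The 28 runs held 131 peaks (5.76%, 95% interval 4.84 to 6.80%) on 14 chromosomes. This interval also treats peaks as independent, although peaks enter runs in groups, so it is likely too narrow. Of the 28 runs, 18 had 3 peaks and 4 had 4 peaks, none had 5, and 6 had from 6 to 14. These 6 long runs held 61 peaks (2.68%) and lay on chromosomes 26, 6, 27 and 13. The step from 4 to 6 peaks separated them from the 22 short runs, but not by length, as the short runs spanned 1.78 to 19.3 kb and the long ones 5.15 to 31.4 kb.

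The longest run lay at chr26:31268295-31299725, with 14 peaks in 31.4 kb. Its spacings were, in order, 465, 695, 4610, 910, 1840, 4890, 1625, 6035, 2320, 2090, 3170, 960 and 1420 bp, with a median of 1840 bp. The peaks filled 17.8% of the run. An empty stretch of 817 kb preceded the run and one of 3.85 Mb followed it, so it stood clear of its surroundings on both sides.

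The second, also on chromosome 26, lay at chr26:28858565-28884735, with 12 peaks in 26.2 kb. Its spacings were 4520, 625, 5925, 5970, 2275, 1295, 675, 975, 910, 460 and 2140 bp, with a median of 1295 bp. Its empty flanks were 1116 and 199 kb. Both long runs of chromosome 26 therefore mixed spacings of 460 or 465 bp with spacings of 5970 or 6035 bp, and neither had an even step.

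Chromosome 6 had a run of 11 peaks at chr6:43063350-43082025, within 18.7 kb. Its spacings were 870, 2165, 3890, 860, 3450, 540, 1740, 800, 2155 and 1805 bp. It lay 683 kb after the preceding peak and 3223 kb before the next.

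Chromosome 27 had a run of 11 peaks at chr27:13144025-13165775, within 21.8 kb. Its spacings were 6500, 3930, 1150, 3250, 530, 890, 1830, 530, 890 and 1850 bp. The succession of 530, 890 and 1830 bp was followed at once by 530, 890 and 1850 bp, so that the same layout returned after 3250 bp. Successions of 3 spacings that recurred without overlap within a run, each matching within 20 bp, were searched in the 5 runs with 7 or more peaks, the smallest number that can hold one, and this was the only recurrence found. The search was made after the spacings had been seen. A further distance of 3250 bp directly preceded the repeated part. The run was followed by 6.61 Mb without a peak.

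Chromosome 13 carried 2 long runs 432 kb apart with no peak between them. The first, at chr13:40250745-40262205, had 7 peaks with spacings of 850, 2860, 1050, 2040, 3635 and 625 bp. The second, at chr13:40693995-40699145, had 6 peaks with spacings of 790, 640, 1525, 870 and 925 bp. The second was the most compact of the long runs, with peaks over 46.6% of its 5.15 kb. Over the 6 long runs together the median of the 55 spacings was 1525 bp, with a range of 460 to 6500 bp.

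**Figure D3:**
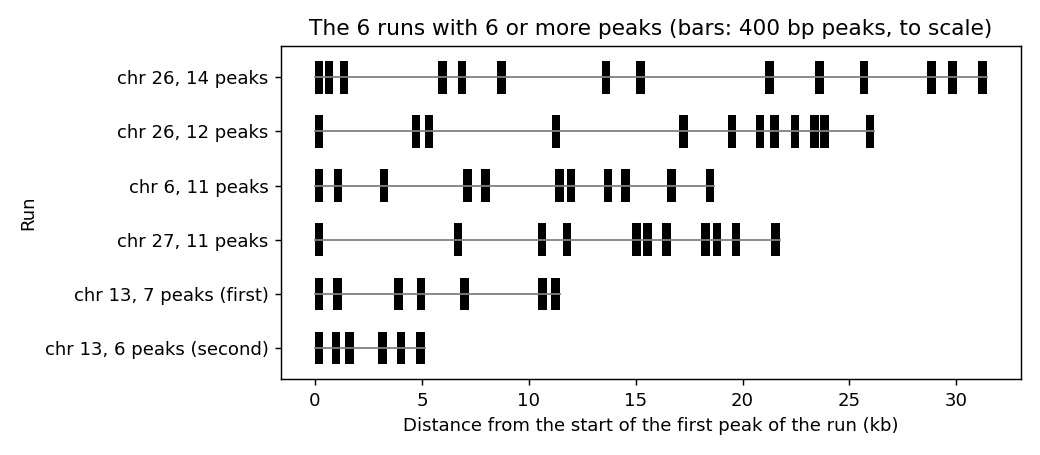
Each row draws a run with 6 or more peaks, with its peaks as bars of 400 bp to scale against the distance from the first start of the run in kb. The runs hold 14, 12, 11, 11, 7 and 6 peaks, and the chromosome 27 run shows the layout that returns after 3250 bp.

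The short runs with 4 peaks completed the 10 largest. They lay on chromosome X (chrX:105567275-105574845, 7.57 kb), chromosome 16 (chr16:59338450-59348275, 9.83 kb), chromosome 9 (chr9:19860265-19876035, 15.8 kb) and chromosome 3 (chr3:71064875-71084185, 19.3 kb). The chromosome 9 run had the most even spacings of these, at 4865, 5630 and 4875 bp. On chromosome X a run of 3 peaks began 22.0 kb after the run of 4, so that 7 of the 50 peaks of X lay within these neighbouring runs. Chromosome 16 held the most runs of 3 or more of any chromosome, with 6 runs and 19 peaks.

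A coarser count used bins of 1 Mb. Of 2295 bins up to the last peaks, 1105 (48.1%) had no peak, 1068 (46.5%) had 1 to 3, and 122 (5.32%) had 4 or more. Bins with 10 or more peaks, here called dense, numbered 8 and held 102 peaks (4.49%). Just below this threshold stood 5 bins with 8 or 9 peaks, among them X from 105 to 106 Mb with 9 and chromosome 26 from 20 to 21 Mb with 8.

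The dense bins were of different kinds. In 5 of them every peak belonged to 1 or 2 long runs: chromosome 26 from 31 to 32 Mb and from 28 to 29 Mb, chromosome 13 from 40 to 41 Mb, chromosome 6 from 43 to 44 Mb and chromosome 27 from 13 to 14 Mb. Chromosome 16 from 59 to 60 Mb had the most peaks of all, with 19, but these came as 10 separate places over 452 kb: 3 runs with 10 peaks together, 2 pairs and 5 peaks alone. The last of these peaks was also the last of the chromosome, and the stretch held 26.4% of the 72 peaks of chromosome 16. Chromosome 2 had adjacent dense bins from 35 to 37 Mb with 22 peaks over 1796 kb, of which 3 belonged to a run of 3 or more. The median spacing there was 17.9 kb, compared with 1.84 kb in the chromosome 26 bin from 31 to 32 Mb. Another start lay within 10 kb of 14 of the 19 peaks on chromosome 16 and of 9 of the 22 on chromosome 2. Dense bins were thus made of 1 or 2 compact runs, of many places spread out as on chromosome 2, or of a mixture as on chromosome 16.

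Empty stretches, here 5 Mb or more between the edges of consecutive peaks, numbered 62 and lay on 30 of the 39 chromosomes. Together they came to 457 Mb, 20.1% of the length up to the last peaks. The list does not show how much of this length reads could be mapped to, so an empty stretch is not shown to lack binding. Of the 62, 8 were 10 Mb or longer. The longest, 14.9 Mb, lay on chromosome X between 27281965 and 42140725. It was followed by 13.8 Mb on chromosome 31 (11048035 to 24837085), 13.2 Mb on chromosome 6 (56020730 to 69209215), 13.2 Mb on chromosome 3 (74145 to 13231850) and 12.7 Mb on chromosome 19 (6639505 to 19376305). The next 5 were 11.4 Mb on chromosome 33 (7027155 to 18414215), 10.5 Mb on chromosome X (84479195 to 95002475), 10.1 Mb on chromosome 22 (15446510 to 25556545), 9.81 Mb on chromosome 13 (49073675 to 58883685) and 9.65 Mb on chromosome 1 (70636635 to 80286275). Long empty stretches were not limited to sparse chromosomes, since chromosome 6 was the fourth densest autosome and had the third longest stretch.

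Chromosome X had 8 of the 62 stretches, and these made up 57.3% of its length up to the last peak. Its first 3 stretches, from 19089800 to 50266205, followed each other, so that 31.2 Mb held only the peaks starting at 27281565 and 42140725. Chromosomes 3 and 16 had 4 stretches each. Chromosome 16 thus had both the highest share of close neighbours and several empty stretches, although none of these bordered its dense part at 59 to 60 Mb. The autosomes 2, 5, 9, 20, 26, 28, 29, 35 and 38 had none. The autosome with the shortest maximum was 20, where no stretch exceeded 3.05 Mb. Before the first peak, chromosomes 21, 22 and 33 had 6.55, 7.13 and 5.42 Mb without a peak, which were not counted among the 62.

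**Figure D4:**
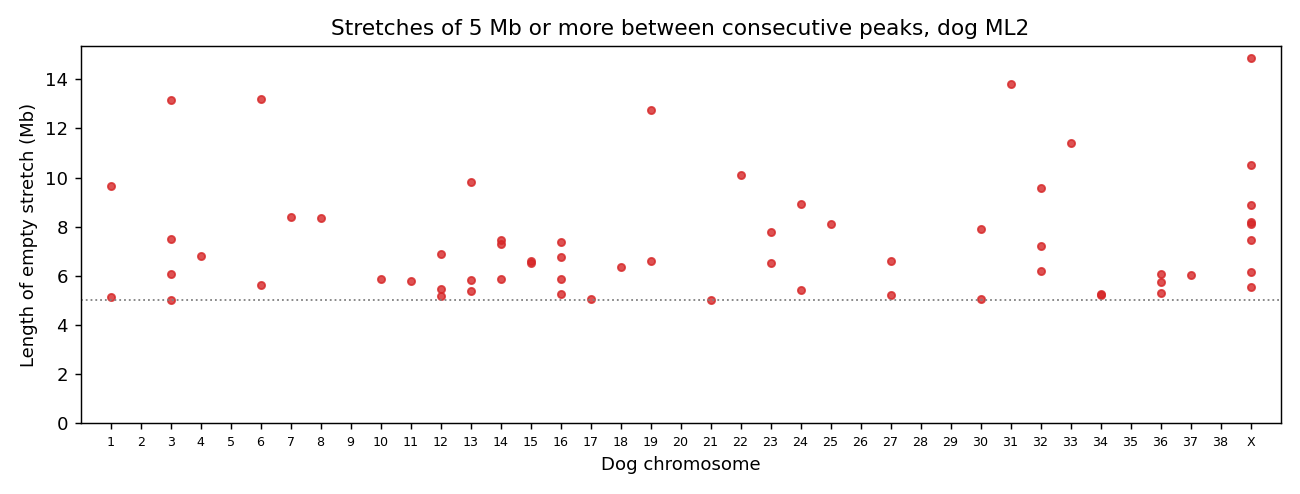
Points give the length in Mb of each stretch of 5 Mb or more between consecutive peaks, by dog chromosome, and the dotted line marks 5 Mb. Chromosome X has 8 stretches, the longest 14.9 Mb, and chromosomes 9, 20 and 26 have none.

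Chromosome 26 was examined in more detail because its density was already known to be the highest, so its density is a description. By the position of its last peak it ranked 31st in length among the 38 autosomes, yet 5th in number of peaks. Its density was 2.75 times the median autosome. The median distance between its peaks was 93.3 kb, compared with 475 kb on the other autosomes pooled. Of its 103 peaks, 29 (28.2%) belonged to 3 runs, namely the runs of 14 and 12 peaks and one of 3 peaks at chr26:26017645-26019425 in 1.78 kb. The 14 and 12 peaks of the long runs came from 57.6 kb in all and made up 25.2% of the peaks of the chromosome.

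Without the long runs chromosome 26 had 1.98 peaks per Mb, and without all 3 runs it had 1.90, with 74 peaks. Counting only peaks outside runs on every autosome, it still ranked first, ahead of chromosome 9 with 1.68 per Mb and the median autosome with 0.889. The median spacing outside runs was 196 kb, compared with 521 kb on the other autosomes outside runs. The lead over chromosome 9 was thus narrower outside runs, and it was not tested.

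In bins of 5 Mb from its beginning, chromosome 26 had 6, 6, 11, 22, 13, 26, 15 and 4 peaks, the last bin ending at the last peak. The 403 complete 5 Mb bins of the other autosomes had a median of 4 and a maximum of 25. The bin from 15 to 20 Mb held no run of 3 or more: its 22 peaks stood in 21 places. The bin from 25 to 30 Mb, with 26 peaks, had 15 of them in runs and stood in 10 places. In the bin from 30 to 35 Mb, 14 of the 15 peaks were the longest run. Chromosome 26 therefore had a broad dense part in the middle, made of separate places more than 10 kb apart, and compact runs further on. From 18 to 21 Mb, 19 peaks lay with none of them in a run of 3 or more, whereas beyond 32 Mb only 4 peaks were found.

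The pairs of chromosome 26 numbered 7, with spacings from 565 to 4805 bp. Pairs beginning at 25048165 and 25410155 had spacings of 900 and 890 bp, and the run of 3 peaks further along opened with 900 bp. The other pairs had 1610, 3340, 4805, 1780 and 565 bp. This likeness was picked out after the spacings had been seen and was not tested. The longest stretches without a peak were 3.85 Mb after the longest run (31299725 to 35154255), then 3.65 Mb (35154655 to 38806525), and 2.11 Mb earlier on (11377495 to 13482605). Both longest stretches surrounded the single peak at chr26:35154255-35154655.

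**Figure D5:**
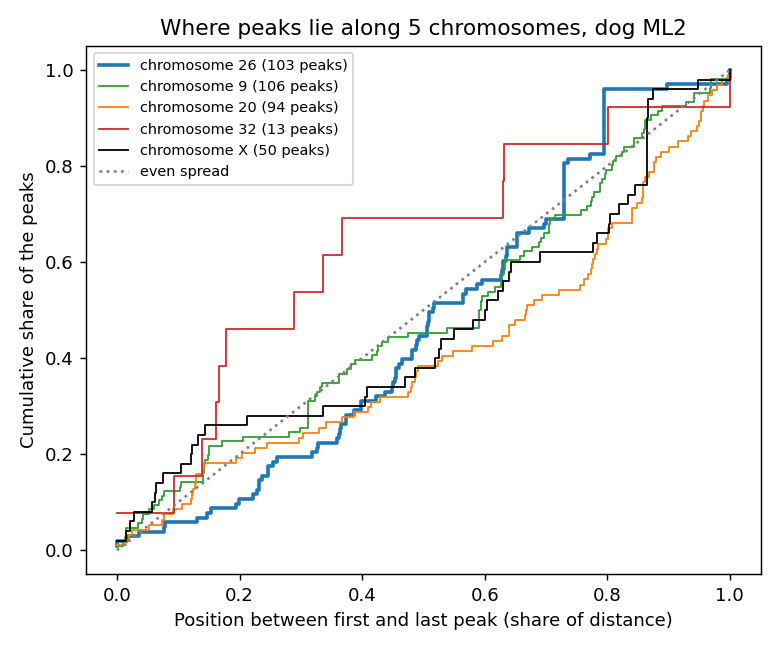
Lines give the cumulative share of the peaks against the position between the first and last peak, for the dog chromosomes 26, 9, 20, 32 and X, with an even spread dotted. Chromosome 26 climbs in steep steps at its runs of 12 and 14 peaks and is nearly flat over its last part, where 4 peaks lie beyond 32 Mb.

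The same measures in the other lists served as background, with different cells, builds and list lengths and with no test between lists. The highest autosome stood at 2.54 times its list's median in horse, 2.60 times in human and 1.64 times in mouse, next to 2.75 times in dog. Chromosome X stood below the median autosome in all 4 lists, at 0.428 times in dog, 0.511 in horse, 0.385 in human and 0.374 in mouse. Runs of 3 or more held 5.76% of the dog peaks, 4.62% in horse, 2.16% in mouse and 10.6% in human. The largest run had 14 peaks in dog, 6 in horse and mouse and 7 in human. Long runs of 6 or more peaks occurred in every list, with 6 in dog, 2 in horse, 4 in human and 1 in mouse. Runs of 8 or more peaks, a size above the largest run of each other list, numbered 4 in dog and so 0 in the others. Empty stretches of 5 Mb or more numbered 62 in dog, 83 in horse, 92 in mouse and 48 in human, and the longest of the dog list was the shortest of the 4 maxima, which were 18.2, 36.0 and 25.1 Mb in horse, mouse and human. Starts ending in the digit 5 made up 79.2 to 83.0% of every list, so this feature was shared by all of them. The shortest spacing was also alike, at 460 bp in dog, 470 bp in horse and 455 bp in human and mouse, so it was not particular to dog.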

How the data were processed

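The 4 deposited lists hold peak positions in bp; per the labels, the authors deposited 1 list for both immunoprecipitated samples of a species. The lists have no header. Per the submitters' processing notes, Bowtie 0.12.8 and MACS 1.4.2 were used, with no role given, and CanFam3.1 is the dog build. The peak threshold and the way replicates were joined are not known from the labels. A higher or lower threshold would change every density and spacing.

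Peaks were sorted by position. Distances were taken between consecutive starts; runs joined starts at most 10 kb apart; bins of 1 Mb took the midpoint of a peak. Intervals are exact (Clopper-Pearson for shares, Poisson for densities, both 95%). Both kinds treat peaks as independent, although close peaks come in groups. Counting of runs, neighbours and distances was tested on simulated data. For bins only the total number of peaks was compared, which does not check the placing of peaks in bins. Python 3.11.15, numpy 2.4.6, pandas 2.3.3 and scipy 1.17.1 were used.

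The chromosomes named are the 5 densest and 5 sparsest autosomes and X; also named are the 10 longest empty stretches, 10 largest runs, all dense bins, 10 closest pairs (11 with a tie) and the parts of chromosome 26. Other places were named after their values were seen. The list and the measures were chosen with earlier results of these data known.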

Additional observations from a re-analysis of the deposited data

How the results depend on the processing

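Of 32 alternative values, 14 stayed within the preset margin (1.5 times for counts, the 95% interval for other values) and 18 did not. For the share of peaks with a close neighbour this margin is likely too narrow, since its interval treats peaks as independent. The density of chromosome 26 (2.64 per Mb) was 1.80 with runs and pairs counted once. It was 1.98 without dense bins or, chosen after seeing the data, without its long runs. Chromosome 26 ranked first in each planned setting, but its lead in the alternative settings was not tested. The next autosome stood at 1.58 per Mb with runs and pairs counted once and at 1.75 without dense bins. The share of peaks with a neighbour within 10 kb (13.9%) was 6.82, 10.4, 19.9 and 28.6% at reaches of 2, 5, 20 and 50 kb, 10.6% without dense bins and, chosen after seeing the data, 11.5% without the runs of 6 or more peaks. The 28 runs of 3 or more peaks became 18, 62 and 104 with links of 5, 50 and 100 kb, and 10 or 6 with a minimum of 4 or 5 peaks. The 62 empty stretches became 174 at a minimum of 3 Mb and 8 at 10 Mb. The 8 dense bins became 13 at 8 or more peaks and 1 at 15 or more. These changes follow from how each setting counts. Densities over assembly chromosome lengths, gene reaches and motif searches were not run, because no dog genome or annotation was used here. No paired analysis was possible because the deposited list is 1 for both replicates; no replicate could be left out for the same reason. Depth is unknown.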
